A study of Homo sapiens with 40 samples.

Results

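IFITM1, IFITM2 and IFITM3 are interferon-induced transmembrane genes that lie side by side on human chromosome 11. They were selected from earlier results of these data as genes with late decreases under OTX015, so their differences between OTX015 and DMSO describe the genes and were not tested. All probes annotated to the 3 symbols were taken, which gave 1 probe for each gene, out of 20046 genes named on the array. The levels come from 40 Illumina bead arrays, read in 1 colour, of the mantle cell lymphoma lines REC1, MAVER1, JEKO1 and GRANTA519, all 4 of them established cell lines. Each line was cultured with OTX015, a small-molecule inhibitor of the BET bromodomain proteins that read acetylated histones, or with its solvent DMSO. RNA was taken after 2, 4, 8, 12 and 24 h, and every combination of line, agent and hour has 1 array. There are thus 5 OTX015 groups and 5 DMSO groups, in which the 4 lines serve as replicates. The sources used here give neither the OTX015 dose nor whether a line's time points were separate cultures.

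IFITM proteins are small membrane proteins that block the fusion of many enveloped viruses with host membranes. Interferons induce them through transcription factors that bind an interferon response element in their promoters. IFITM1 sits mostly at the plasma membrane, where in B cells it associates with the tetraspanin CD81, and IFITM2 and IFITM3 cycle through endosomes. IFITM3 has also been described in B cells as a membrane scaffold for PI3K signalling. Their coding sequences are closely similar, so probes for one gene can in principle bind transcripts of another.

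The promoters of IFITM1 and IFITM3 are shown because the response element also occurs in promoters of other interferon-stimulated genes. No promoter of IFITM2 was among the sequences used, so IFITM2 was not searched. Both sequences come from RefSeq on GRCh38.p14 and run 5′ to 3′ over 130 bases, 120 before the annotated start of the gene and 10 from it. IFITM1 is on the plus strand at chr11:313920-314049, and IFITM3 is on the minus strand at chr11:320851-320980. Capitals mark matches to GAAANNGAAA, a core of the response element in which N is any base, and both strands were searched.
IFITM1: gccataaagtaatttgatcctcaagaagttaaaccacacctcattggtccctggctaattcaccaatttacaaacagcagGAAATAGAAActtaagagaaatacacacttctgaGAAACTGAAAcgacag
IFITM3: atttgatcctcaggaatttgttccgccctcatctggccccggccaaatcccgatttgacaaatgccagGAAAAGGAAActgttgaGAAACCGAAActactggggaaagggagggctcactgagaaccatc
Each of these promoters held 2 matches on the strand of the gene, which did not overlap each other. In IFITM1 they ran from position -40 to -31 and from -6 to 4 relative to the start, and in IFITM3 from -52 to -43 and from -35 to -26. Among all 35116 RefSeq promoters of 300 bases, 3.57% held at least 1 match. Of 34 listed interferon-stimulated genes with a promoter in the same table, 21 held one (61.8%). The promoter of the family member IFITM5 held 0 matches in its 300 bases. A match describes these letters and does not show that a factor binds.

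The deposited intensities were corrected for background, brought to 1 common distribution by quantile normalization and log2 transformed, and "level" below means this value. Background levels of the 40 arrays lay between 89.2 and 113.0 intensity units, and between 35.5% and 46.4% of 47231 probes were above background on an array. Of the B cell and mantle cell markers, CD79A, CD79B and SOX11 were above background on all 40 arrays and MS4A1 (CD20) on 38. CCND1, the cyclin gene activated by the mantle cell translocation, was above background on 25 arrays, with 0 of 10 in JEKO1 and 5 of 10 in REC1, and PAX5 on 0. Of 8 T and NK cell markers, CD3E, CD4 and NKG7 were above background on 0 arrays and 6 markers on under 4 arrays. CD3D was above background on the 10 arrays of REC1, and CD8A on 9 arrays spread over the 4 lines. Of 8 myeloid markers, CD68 was above background on all 40 arrays, CD14 on 37, FCGR3A on 35, and LYZ and ITGAM on 14 each. The other 3 were so on under 4 arrays, with S100A9 on 0. The summed signal of the myeloid markers above background ran between 409 and 1077 on the OTX015 arrays and between 422 and 843 on the DMSO arrays. That of the T and NK markers ran between 11.3 and 1119 with OTX015 and between 14.4 and 1188 with DMSO. The part of these markers in the results below was not tested.

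IFITM2 was the lowest of the 3 genes relative to DMSO at 24 h. Its probe was above background on all 40 arrays. At 24 h its signal with OTX015 was 144 in GRANTA519, 133 in JEKO1, 199.9 in MAVER1 and 189 in REC1. With DMSO at 24 h it was 366 in GRANTA519, 488 in JEKO1, 656 in MAVER1 and 441 in REC1. Every OTX015 array thus lay below every DMSO array, a pattern that 2.71% of the 13732 genes kept showed at that time. The difference in level, OTX015 minus DMSO, was -2.13 in GRANTA519, -2.72 in JEKO1, -2.04 in MAVER1 and -1.95 in REC1. The mean was -2.21 ± 0.35 (SD, n = 4 lines), or 4.63-fold lower with OTX015, at rank 25 from the lowest of the 13732 genes. In such bulk RNA, fewer cells that carry a transcript and less transcript per cell cannot be told apart.

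The gap in IFITM2 opened gradually. The mean difference was -0.23 ± 0.26 at 2 h, 0.09 ± 0.09 at 4 h, -0.35 ± 0.23 at 8 h and -1.11 ± 0.35 at 12 h (SD, n = 4 lines). At 8 h the line values ran between -0.52 in JEKO1 and -0.03 in REC1, below 0 in 4 of 4 lines, which 20% of genes showed. At 12 h the signals with OTX015 were 189, 254, 272 and 289 in GRANTA519, JEKO1, MAVER1 and REC1. With DMSO they were 324, 489, 692 and 471 in the same order of lines. The groups did not overlap at 12 h, as for 2.81% of genes, although REC1 with OTX015 and GRANTA519 with DMSO came close. The fold was 2.15 lower with OTX015 at 12 h.

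The value at 4 h depended on the scaling of the arrays. The normalized IFITM2 level was higher with OTX015 in 4 of 4 lines at 4 h, by between 0.02 and 0.22, which 18.5% of genes showed. The deposited signals ran the other way, at 337, 494, 632 and 443 with OTX015 against 341, 505, 706 and 465 with DMSO in GRANTA519, JEKO1, MAVER1 and REC1. With median scaling in place of quantile normalization the mean difference at 4 h was -0.02. No direction is therefore given for IFITM2 at 4 h.

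**Figure D1:**
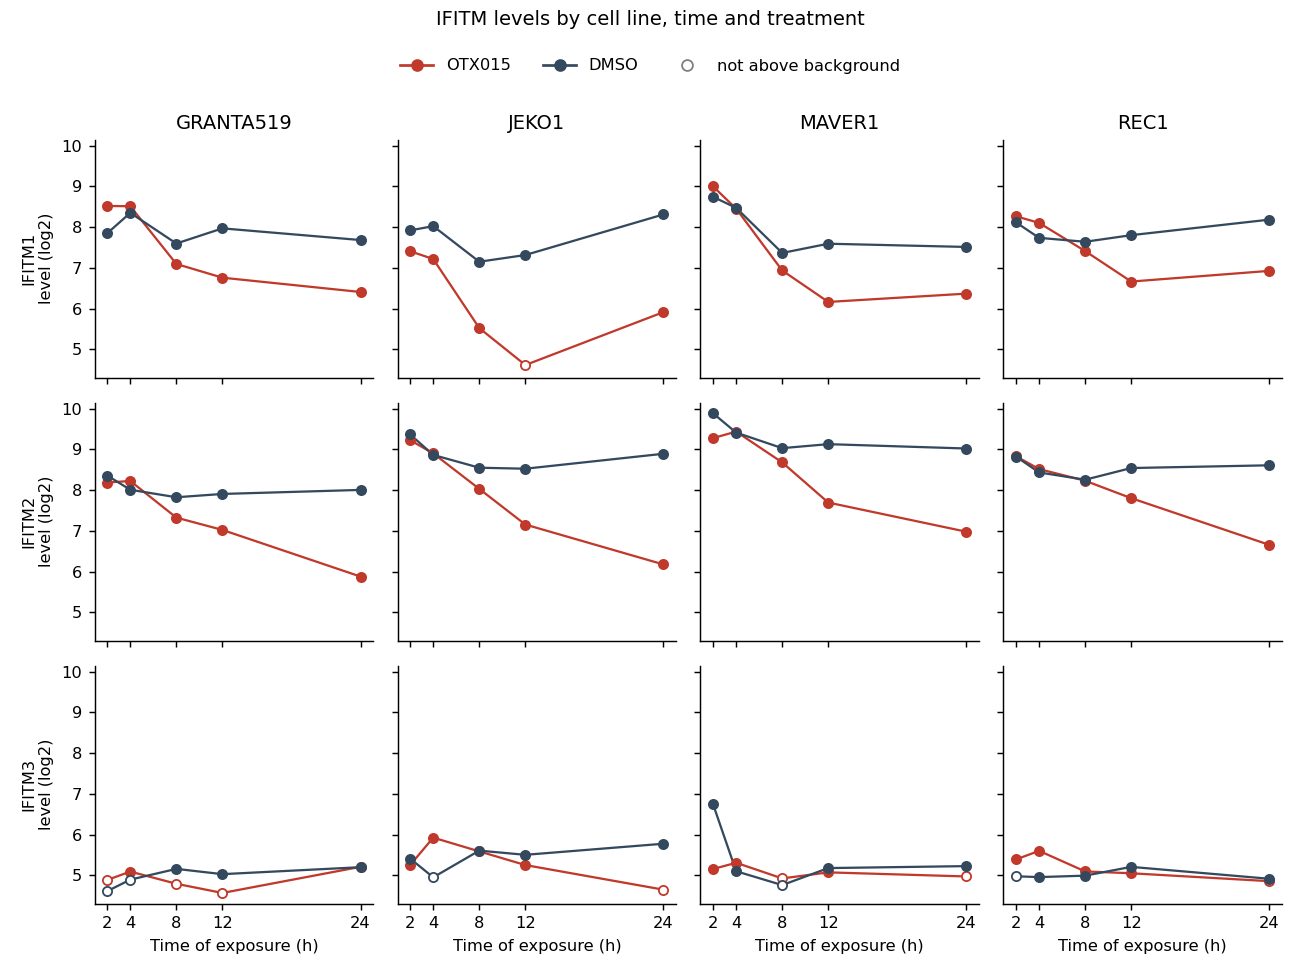
Normalized log2 level (vertical axis) of each IFITM gene against hours of exposure (horizontal axis) in the 4 lines, OTX015 in red and DMSO in dark blue, 1 array per point, open where the probe was not above background. The red IFITM2 and IFITM1 curves lie below the blue ones at 8, 12 and 24 h in every line, though only narrowly for IFITM2 in REC1 at 8 h. For IFITM1 in JEKO1 this holds at 2 and 4 h too, and IFITM3 stays near the bottom of the scale in both arms.

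IFITM1 was lower with OTX015 at 12 and 24 h, and its mean differences at these times were within each other's spread. At 12 h its signal with OTX015 was 170.0 in GRANTA519, 122 in JEKO1, 146 in MAVER1 and 172 in REC1. With DMSO at 12 h it was 336 in GRANTA519, 255 in JEKO1, 291 in MAVER1 and 315 in REC1. All OTX015 arrays again lay below all DMSO arrays, as for 2.81% of genes at 12 h. The JEKO1 array with OTX015 at 12 h was the single array of 40 on which the IFITM1 probe was not above background, and that array had the highest background level, 113.0.

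At 24 h the IFITM1 signal with OTX015 was 171 in GRANTA519, 124 in JEKO1, 158 in MAVER1 and 211 in REC1. With DMSO at 24 h it was 310.1 in GRANTA519, 356 in JEKO1, 289 in MAVER1 and 347 in REC1. The groups did not overlap, as for 2.71% of genes at 24 h, and JEKO1 held the lowest OTX015 value and the highest DMSO value. The mean difference in level was -1.62 ± 0.73 at 12 h and -1.52 ± 0.59 at 24 h (SD, n = 4 lines), or 3.07-fold and 2.87-fold lower with OTX015. These means stood at ranks 102 and 129 from the lowest of all genes.

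JEKO1 had the lowest IFITM1 difference of the 4 lines at every time. It was -0.51 at 2 h, -0.81 at 4 h, -1.63 at 8 h, -2.70 at 12 h and -2.40 at 24 h. The other 3 lines had differences of -0.02 or more at 2 and 4 h, up to 0.67 in GRANTA519 at 2 h. At 8 h they lay between -0.50 in GRANTA519 and -0.23 in REC1. At 24 h they lay between -1.27 in GRANTA519 and -1.15 in MAVER1. Without JEKO1 the mean difference in IFITM1 was -1.26 at 12 h and -1.23 at 24 h. In JEKO1 IFITM1 was thus below its DMSO level at 2 h already, whereas its IFITM2 difference was -0.14 at 2 h and 0.04 at 4 h.

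The order of the genes by size of difference changed with time. The IFITM2 difference minus the IFITM1 difference of the same line was 0.35 ± 0.51 at 8 h and 0.51 ± 0.57 at 12 h (SD, n = 4 lines), with 0 and 1 of 4 lines below 0. At 24 h it was -0.69 ± 0.26 and below 0 in 4 of 4 lines. IFITM1 thus had the lower mean at 8 and 12 h and IFITM2 at 24 h, but the SD at 8 and 12 h exceeded the mean. Such differences compare changes, since the signals of different probes are not on a common scale of transcript amount.

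IFITM3 stayed near background, and its late differences were smaller than those of IFITM1 and IFITM2. Its probe was above background on 28 arrays, 13 with OTX015 and 15 with DMSO, and its signal ran between 97.1 and 196 with a median of 117. At 24 h the signal with OTX015 was 121 in GRANTA519, 97.2 in JEKO1, 109.7 in MAVER1 and 111 in REC1. With DMSO at 24 h it was 124 in GRANTA519, 137 in JEKO1, 126 in MAVER1 and 104 in REC1. The probe was above background on 1 of 4 OTX015 arrays and on 4 of 4 DMSO arrays at 24 h, and the level was lower with OTX015 in 3 of 4 lines. The groups overlapped at 24 h, as at the other 4 times. The mean difference was -0.36 ± 0.53 (SD, n = 4 lines), which came mostly from JEKO1 at -1.13 and was -0.10 without that line.

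At earlier times IFITM3 varied without a common course. The mean difference was -0.26 ± 0.91 at 2 h, 0.51 ± 0.38 at 4 h, -0.03 ± 0.24 at 8 h and -0.24 ± 0.16 at 12 h (SD, n = 4 lines). In normalized level all 4 lines were above 0 at 4 h and below 0 at 12 h, which 18.5% and 19.6% of genes showed at these times. The deposited signals did not follow in every line. At 4 h those with OTX015 were 98.5%, 126%, 98.5% and 109% of DMSO in GRANTA519, JEKO1, MAVER1 and REC1. At 12 h they were 89.9%, 112%, 100.2% and 91.3% in the same order of lines. The wide SD at 2 h came from MAVER1, at -1.58, where the DMSO array gave the highest IFITM3 signal of all 40, 196. Without MAVER1 the mean at 2 h was 0.18. Values this near background carry little information on the amount of transcript.

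**Figure D2:**
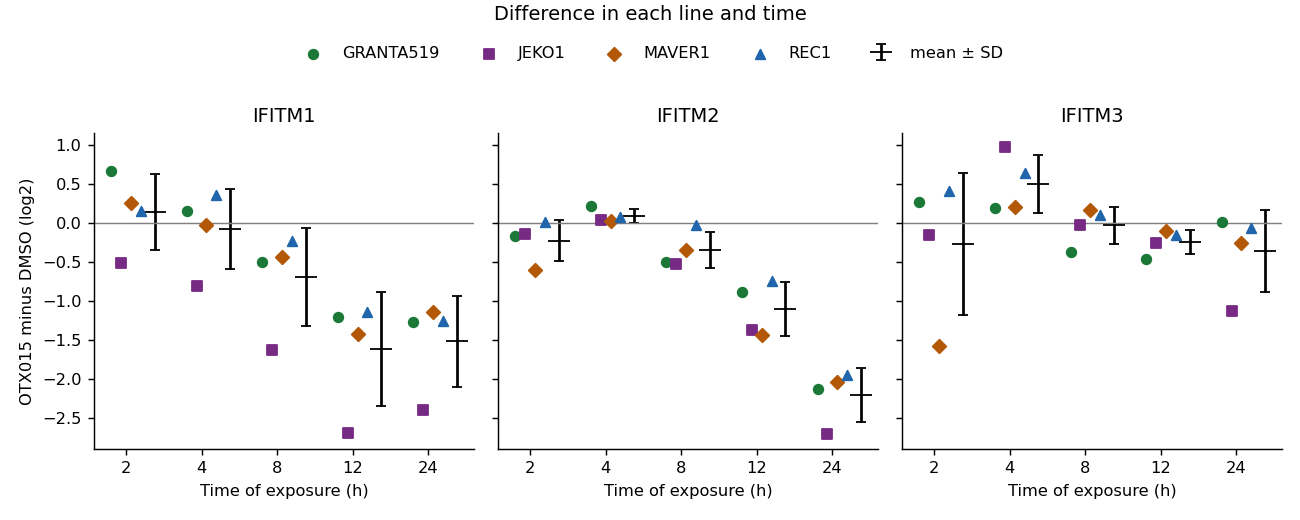
Difference in level, OTX015 minus DMSO on the log2 scale (vertical axis), by hours of exposure (horizontal axis) for each IFITM gene, 1 symbol per line, with black bars for the mean ± SD of the 4 lines. IFITM1 levels off at -1.62 and -1.52 at 12 and 24 h with JEKO1 lowest, IFITM2 goes on to -2.21 at 24 h, and IFITM3 scatters around 0.

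The size of the late IFITM1 and IFITM2 differences depended on the background correction. Without background correction the IFITM2 mean at 24 h was -1.50 and the IFITM1 mean -0.96. In the authors' deposited log2 values they were -1.41 and -0.90. The sizes without correction were between 55.3% and 75.2% of those above over both genes at 12 and 24 h. The sign was below 0 at 12 and 24 h in each of these settings.

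Within each arm, the change between 2 and 24 h showed the same contrast between treatments. With OTX015, IFITM2 at 24 h minus 2 h was -2.46 ± 0.40 and IFITM1 was -1.89 ± 0.59 (SD, n = 4 lines). With DMSO, IFITM2 was -0.48 ± 0.28, with line values between -0.86 and -0.21, and IFITM1 was -0.23 ± 0.70. Without MAVER1 the IFITM2 value in DMSO was -0.35. These changes are not tested here, since both arms at both times entered the selection. For IFITM3 the change was -0.25 ± 0.42 with OTX015 and -0.16 ± 0.94 with DMSO.

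The 3 probes were compared with each other because transcripts of one IFITM gene could bind the probe of another. Probe sequences were not used here, so binding across genes was not tested by sequence. In DMSO, MAVER1 and GRANTA519 differed by 1.27 in the level of IFITM2 and by 0.05 in that of IFITM1. As a description over arrays that share lines and times, the log2 signals of IFITM1 and IFITM2 had r = 0.69, those of IFITM2 and IFITM3 r = 0.49, and those of IFITM1 and IFITM3 r = 0.25 (n = 40 arrays).

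Of the other family members, IFITM5, a gene known from bone, had 1 probe that was above background on 0 of 40 arrays. The pseudogene IFITM4P had 2 probes, above background on 0 and on 11 of 40 arrays. The second had a difference of 0.45 at 24 h that did not pass the test (limma, adjusted p = 0.0805).

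In DMSO, IFITM2 differed between the lines and IFITM1 did not pass the test. The DMSO arrays entered the differences by which the genes were selected, but the order of the lines did not. Over the 5 times IFITM2 averaged 9.29 ± 0.37 in MAVER1, 8.84 ± 0.34 in JEKO1, 8.53 ± 0.21 in REC1 and 8.02 ± 0.20 in GRANTA519 (SD, n = 5 times). GRANTA519 was the lowest line at each of the 5 times and MAVER1 the highest, while JEKO1 and REC1 changed places at 12 h. The difference between lines passed limma's F test (adjusted p = 6.82e-09), as it did for 73.5% of all genes, so a difference between these lines is common. MAVER1 minus GRANTA519 was 1.27 (SE 0.10, adjusted p = 2.70e-09 in limma), the widest of the 6 pairs, and 46.5% of genes passed in that pair. JEKO1 minus GRANTA519 was 0.82 (adjusted p = 6.57e-07 in limma, 53.8% of genes). The nearest pair, REC1 minus JEKO1, was -0.31 (SE 0.10, adjusted p = 0.0116 in limma, 52.4% of genes), and it missed the threshold without the 2 h arrays (adjusted p = 0.0593). MAVER1 minus JEKO1 was 0.46 and REC1 minus GRANTA519 0.51 (adjusted p = 0.000607 and 0.000152 in limma, 46.7% and 53.9% of genes). REC1 minus MAVER1 was -0.76 (adjusted p = 1.89e-06 in limma, 50.5% of genes), so all 6 pairs passed. These p-values rest on the spread within lines that is left once the time course shared by the lines is removed, which may be technical. They do not rest on the SD over times printed above.

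IFITM1 averaged 7.94 ± 0.62 in MAVER1, 7.89 ± 0.24 in REC1, 7.89 ± 0.30 in GRANTA519 and 7.74 ± 0.49 in JEKO1 with DMSO (SD, n = 5 times; F test adjusted p = 0.810 in limma). No neighbours in that order differed beyond their spread. IFITM3 averaged 5.45 ± 0.31 in JEKO1, 5.40 ± 0.77 in MAVER1, 5.01 ± 0.11 in REC1 and 4.98 ± 0.24 in GRANTA519 (adjusted p = 0.184 in limma). Without the 2 h arrays, which hold the high MAVER1 value, the IFITM3 test passed at an adjusted p of 0.0322. The line with the largest IFITM1 difference under OTX015, JEKO1, had a DMSO level of IFITM1 within the spread of the other lines.

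**Figure D3:**
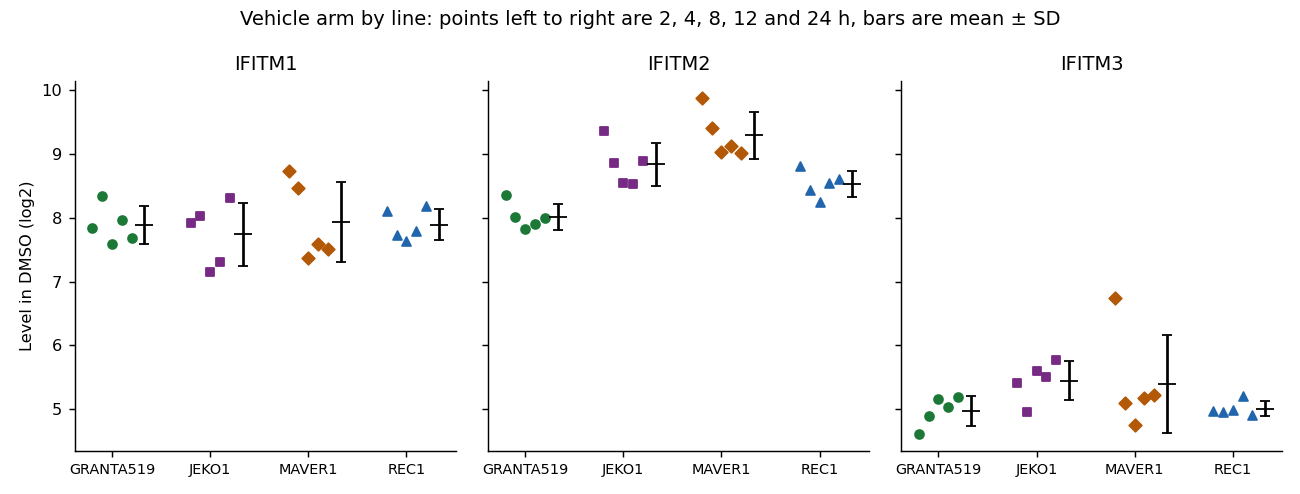
Normalized log2 level (vertical axis) of each IFITM gene on the 20 DMSO arrays, grouped by line (horizontal axis), with points from left to right for 2, 4, 8, 12 and 24 h and black bars for the mean ± SD over the times. IFITM2 averages 9.29 in MAVER1 and 8.02 in GRANTA519, whereas IFITM1 lies between 7.74 and 7.94 in all 4 lines.

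Some other interferon-stimulated genes fell with OTX015 as well, from 4 h on. Of 41 listed genes other than IFITM, 38 passed the filter on low signals. At 2 h 0 of the 38 passed limma's test (at an unadjusted p under 0.05, 1 was higher and 1 lower), where 9.8% of all genes passed in either direction and 4.84% downward. The number that fell was 9 at 4 h (10.1% of all genes), 15 at 8 h (10.7%), 17 at 12 h (12%) and 16 at 24 h (11.4%). At 24 h 2 rose (13.2% of all genes). The median difference of the 38 genes was -0.09 at 2 h, -0.28 at 4 h, -0.46 at 8 h, -0.54 at 12 h and -0.36 at 24 h, while the median of all genes stayed between -0.01 and 0.01. The IFITM3 mean at 24 h, -0.36, stood at the median of this list, and the IFITM1 and IFITM2 means lay below it.

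With the background correction used here, TRIM22, an antiviral ubiquitin ligase, had the lowest mean of the list at 24 h. It fell by 1.94 ± 0.51 on the log2 scale (limma, adjusted p = 2.54e-07). ISG20, a nuclease that degrades viral RNA, fell by 1.65 ± 1.10 (adjusted p = 0.000418 in limma). The value of ISG20 in REC1 stood near 0, away from the other 3 lines. MX1, a GTPase that traps viral nucleocapsids, fell by 1.57 ± 0.92 (adjusted p = 0.000851 in limma). OAS2, which makes the 2-5A signal that activates RNase L, fell by 1.48 ± 0.83 (adjusted p = 0.00035 in limma, SD over n = 4 lines throughout). The sizes and order of these genes depended on the background correction. Without it the mean differences at 24 h were -1.17 for MX1, -1.14 for ISG20, -1.04 for TRIM22 and -0.73 for OAS2. The p-values at each time here and below use a spread shared over the 5 times, so they do not follow from the SD at 24 h. IFITM2 at -2.21 was below all of these means, and IFITM1 at -1.52 lay between MX1 and OAS2. IFIT2, which binds viral RNA, rose by 0.90 ± 1.28 (adjusted p = 0.0461 in limma), and this came from GRANTA519 and MAVER1, without either of which the call was lost. IFI6, a mitochondrial and endoplasmic reticulum protein, rose by 0.49 ± 0.40 (adjusted p = 0.0309 in limma), and its call too was lost without GRANTA519 or MAVER1.

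**Figure D4:**
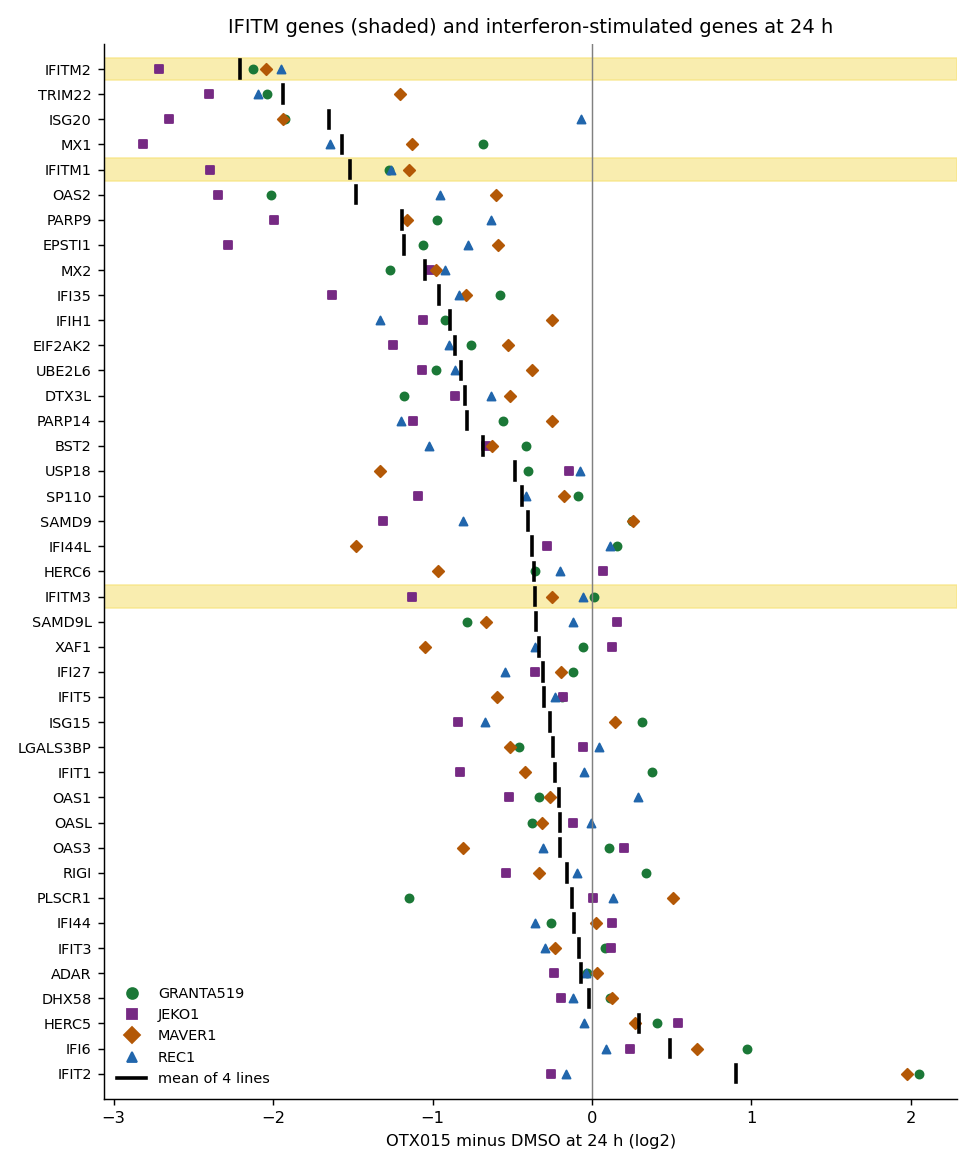
Difference in level at 24 h, OTX015 minus DMSO on the log2 scale (horizontal axis), for the 3 IFITM genes (shaded) and the 38 other interferon-stimulated genes kept (vertical axis, ordered by mean), 1 symbol per line and a black bar for the mean of 4 lines. IFITM2 heads the order at -2.21, IFITM1 is among the lowest at -1.52, and IFITM3 lies in the middle at -0.36.

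The genes that carry the interferon signal moved in both directions. Of 24 listed ligands, receptors and signalling genes, 18 passed the filter on low signals, and at 24 h 4 rose and 2 fell (13.2% and 11.4% of all genes), with a median of 0.07. IRF7, a transcription factor that drives interferon genes and is itself interferon-induced, rose by 1.38 ± 0.38 (adjusted p = 2.70e-05 in limma) while IFITM1 and IFITM2 were lower. JAK1, the kinase shared by the interferon receptors, rose by 0.86 ± 0.29 (adjusted p = 0.00225 in limma). SOCS1, an inhibitor of JAK signalling, rose by 0.50 ± 0.16 (adjusted p = 0.0347 in limma), a call that was lost on leaving out any 1 line. IL10RB, a receptor chain for interferon lambda, rose by 0.32 ± 0.23 (adjusted p = 0.0165 in limma), a call lost without GRANTA519 or MAVER1.

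IFNLR1, the other receptor chain for interferon lambda, fell by 0.77 ± 0.26 (adjusted p = 0.00276 in limma), and IFNGR2, of the interferon gamma receptor, fell by 0.36 ± 0.37 (adjusted p = 0.0458 in limma). IFNGR2 lost its call without JEKO1, MAVER1 or REC1. The receptor chains for type I interferons, IFNAR1 at 0.05 and IFNAR2 at 0.09, did not pass the test (adjusted p = 0.835 and 0.731 in limma). IRF9, the DNA-binding subunit of the complex that acts on the response element shown above, was at -0.11 (adjusted p = 0.783 in limma). The ligands IFNA1, IFNB1, IFNG and IFNL1 did not pass the filter on low signals.

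Transcripts of proteins that modify or act with IFITM proteins showed no fall that passed the test at 24 h. Of 12 listed partners and modifiers, 11 passed the filter, and at 24 h 4 rose and 0 fell in limma (13.2% and 11.4% of all genes), with a median of 0.26 (0 were lower at an unadjusted p under 0.05 either). At earlier times ZMPSTE24, a protease that acts with IFITM3, fell by 0.35 at 4 h (adjusted p = 0.0173 in limma) and VAPA, a membrane contact protein, fell by 0.73 at 8 h (adjusted p = 0.00129 in limma), both named after their values were seen. KDM1A, which demethylates IFITM3 as well as histones, rose by 0.47 ± 0.21 (adjusted p = 0.0068 in limma). VCP, an ATPase that helps turn over and traffic IFITM3, rose by 0.44 ± 0.10 (adjusted p = 0.00118 in limma). AP2M1, the clathrin adaptor subunit that recognises the endocytic signal of IFITM3, rose by 0.30 ± 0.16 (adjusted p = 0.0152 in limma). OSBP, a cholesterol carrier whose partner VAPA binds IFITM proteins, rose by 0.26 ± 0.14 (adjusted p = 0.0453 in limma). The AP2M1 call was lost without GRANTA519 or REC1, and the OSBP call without GRANTA519, MAVER1 or REC1.

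The B cell coreceptor and PI3K genes that IFITM1 and IFITM3 act with were lower in part. Of 15 listed genes, 11 passed the filter, and at 24 h 4 fell and 0 rose in limma (11.4% and 13.2% of all genes), with a median of -0.28 (1 was higher at an unadjusted p under 0.05). CD81, the tetraspanin that binds IFITM1, had a difference of 0.20 and did not pass the test (adjusted p = 0.201 in limma). CR2, which encodes CD21, was at -0.58 (adjusted p = 0.0525 in limma). CD37, another tetraspanin, fell by 1.01 ± 0.52 (adjusted p = 0.000976 in limma), and CD53, also a tetraspanin, fell by 0.62 ± 0.33 (adjusted p = 0.00112 in limma). SYK, the kinase of the B cell receptor, fell by 0.64 ± 0.26 (adjusted p = 0.00165 in limma). INPP5D, the phosphatase that opposes PI3K, fell by 0.95 ± 0.36 (adjusted p = 6.53e-05 in limma), but its probes disagreed, and with the mean of its probes the value was -0.34 (adjusted p = 0.109). Beside these, the B cell marker MS4A1 fell by 1.30 ± 0.68 at 24 h (adjusted p = 0.000844 in limma) and CD79A fell by 0.85 ± 0.82 (adjusted p = 0.0117 in limma), and their part in the IFITM values was not tested. Of the other 3 B cell and mantle cell markers kept, SOX11 rose by 0.33 ± 0.29 (adjusted p = 0.0411 in limma), and CD79B and CCND1 did not pass the test. The CD79A call was lost without GRANTA519 or MAVER1, and the SOX11 call without GRANTA519, JEKO1 or MAVER1.

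The low values of IFITM1 and IFITM2 were set against their chromosomal neighbours. In the RefSeq order the stretch runs IFITM2, IFITM1, the antisense gene IFITM3-AS1 and IFITM3. Of the nearest genes with a kept probe, 4 lay on the IFITM2 side and 5 on the IFITM3 side. Of the 9, only ANO9, a membrane protein of the anoctamin family, passed the test at 24 h, with -0.63 ± 0.54 (adjusted p = 0.0447 in limma, 24.6% of all genes in either direction). PGGHG, the nearest of the 9 on the IFITM2 side, had -0.34 ± 0.33 (adjusted p = 0.167 in limma). B4GALNT4, the nearest of the 9 on the IFITM3 side, had -0.24 ± 0.57 (adjusted p = 0.425 in limma). The other 6 neighbours had means between -0.10 and 0.25. The lowest line value among the 9 neighbours was -1.29, for ANO9 in GRANTA519, which is above every IFITM2 value at 24 h but below the IFITM1 values of GRANTA519, MAVER1 and REC1.

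**Figure D5:**
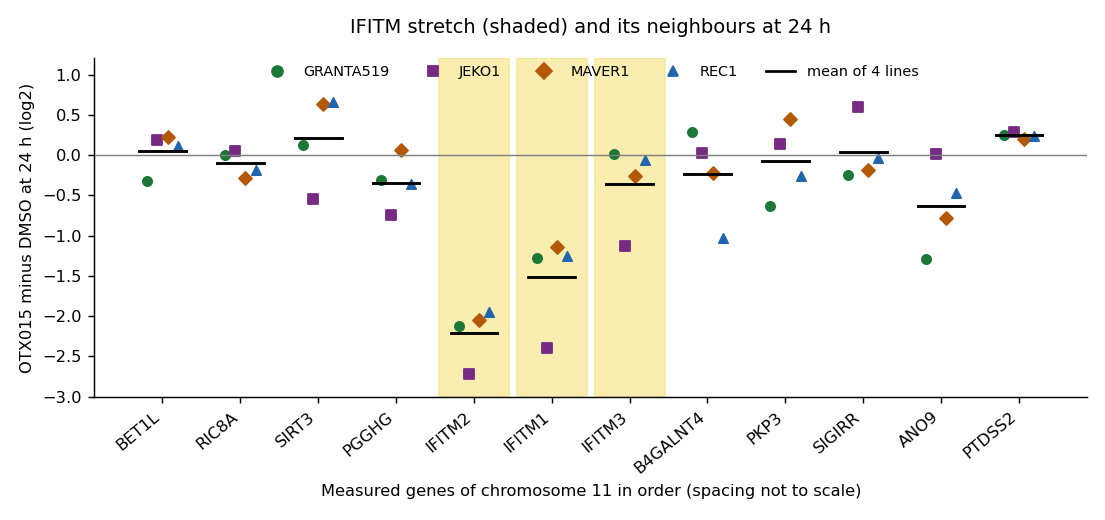
Difference in level at 24 h, OTX015 minus DMSO on the log2 scale (vertical axis), for the IFITM genes (shaded) and their measured neighbours in chromosomal order (horizontal axis, spacing not to scale), 1 symbol per line and a black bar for the mean of 4 lines. IFITM2 at -2.21 and IFITM1 at -1.52 stand below the neighbours on both sides, whose means run between -0.63 and 0.25.

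The genes whose 20 differences by line and time were most like those of each IFITM gene are given as a description, since the differences share lines and arrays. For IFITM1 they were LY86 (r = 0.95), a protein that pairs with the B cell receptor CD180, then GSTO1 (0.95), FCRLA (0.93), MX1 (0.92) and COMMD7 (0.91). MX1 is itself interferon-stimulated, and FCRLA is a B cell Fc receptor-like protein. For IFITM2 they were ACY1 (r = 0.93), VPREB3 (0.91), HCST (0.90), TESC (0.90) and DNPH1 (0.89). VPREB3 encodes a partner of the immature B cell receptor and had a mean difference of -3.39 at 24 h, and HCST, the signalling adaptor DAP10, had -2.30. No gene was among the 5 most like both IFITM1 and IFITM2, although the differences of IFITM1 and IFITM2 had r = 0.74 with each other over the same 20 points. For IFITM3, the highest correlations were lower, from 0.84 for MYL12A to 0.77 for COX16.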

How the data were processed

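Total RNA of each line, treatment and time was labelled and hybridised to 1 single-colour Illumina bead array. The deposited table gave 1 non-normalized intensity per probe and array, and GenomeStudio is named in the submitters' processing notes without a version. It holds signals alone. The authors' deposited log2 values of the same arrays, with column medians of 6.71, served as an alternative. How they were normalized is not given in the sources used. They were not centred by probe and ran in the direction of the signals, and all 40 columns correlated best with their own array.

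In place of the planned neqc, for which control probes or detection p-values would be needed, each array was corrected as follows. The background of an array was the mode of its log2 signals. Signals were corrected by the normal-exponential model, an offset of 16 was added, and arrays were quantile normalized and log2 transformed (limma 3.58.1, R 4.3.3), which hides any shift common to all transcripts. A probe was above background at a signal of over 2.33 SD above the mode, and 27190 of 47231 probes were so on 4 arrays or more and stayed in. The platform annotation gave 1 symbol for 30113 probes, several for 8, and left 17110 unnamed here. Through Entrez identifiers, 30074 matched RefSeq symbols of GRCh38.p14 and 39 did not. The probe of highest mean stood for its gene, for 13732 genes in all.

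OTX015 was tested with limma on the 20 differences between the OTX015 and DMSO arrays of 1 line and time, with Benjamini-Hochberg adjustment over all genes, two-sided, at 0.05. Arrays of 1 line and time come from the same line, and their deviations from group means correlated between 0.756 and 0.886 over the 20 pairs. After line means were removed the correlation lay between -0.263 and 0.0945, so the pairing rests on the line. The fit of the DMSO arrays had terms for line and time. The number of arrays limits the precision. Nothing in the sources used here says that times came from separate cultures. The tests were run on simulated data with independent noise. Such data cannot show how dependence between the times of a line affects the tests.

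The members and lists were chosen with earlier results of these data known. Named genes were, per list, up to 4 with the lowest and 4 with the highest differences past the threshold at 24 h. The other named genes were family members, the 5 genes most like each member, and the nearest neighbours. IFNAR1, IFNAR2, IRF9, CD81, CR2 and the ligands were named after their values were seen. Alternatives were other background corrections, scalings, filters and probe rules, the unpaired fit, and each line or time left out.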

Additional observations from a re-analysis of the deposited data

Results flagged for a closer look

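In the 45 groups of 4 line values examined for the 3 IFITM genes, 1 sample stood apart by Dixon's criterion, while chance gives about 1 in 20 groups. It was the difference of IFITM1 in JEKO1 at 24 h, OTX015 minus DMSO, at -2.40, with the other 3 lines between -1.27 and -1.15.

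For IFITM2, every line was above 0 at 4 h and below 0 at 8, 12 and 24 h. The mean difference at 8 h minus that at 4 h was -0.44, that at 12 h minus that at 4 h was -1.20, and that at 24 h minus that at 4 h was -2.30. For IFITM3, the normalized difference of every line was above 0 at 4 h and below 0 at 12 h, though the deposited signals did not follow in every line. The IFITM3 mean at 12 h minus that at 4 h was -0.75. These differences between times were not tested, and the IFITM2 values at 4 h lay within 0.22 of 0 and changed sign in the mean with median scaling.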

How the results depend on the processing

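No IFITM difference at 12 or 24 h changed sign in the mean under any of the alternatives run, and the median of all genes was -0.12 at 12 h with median scaling. Whether the IFITM1 mean was lower at 12 or at 24 h changed with the background correction: it was -1.62 and -1.52 as reported, -0.90 and -0.96 without correction, -1.19 and -1.22 with an offset of 50, and -0.85 and -0.90 in the authors' deposited log2 values. The IFITM2 difference at 24 h was -1.50 without background correction, -1.84 with an offset of 50 and -1.41 in the authors' deposited log2 values, where the IFITM1 difference was -0.90. With each line left out in turn, the 24 h difference lay between -1.64 and -1.23 for IFITM1, between -2.30 and -2.04 for IFITM2 and between -0.48 and -0.10 for IFITM3. The DMSO change over time lay between -0.44 and 0.10 for IFITM1, between -0.56 and -0.35 for IFITM2 and between -0.40 and 0.30 for IFITM3. The IFITM3 difference between lines in DMSO passed without the 2 h arrays (adjusted p = 0.0322), an alternative added after the data were seen. Genes that changed numbered 1346, 2748, 2980, 3092 and 3382 at 2, 4, 8, 12 and 24 h, 3969 over all times and 1575 between 24 and 2 h. With each line left out they numbered 603 to 1110, 1724 to 2256, 1883 to 2461, 1983 to 2507, 2265 to 2926, 2417 to 3289 and 679 to 1419, from fewer samples. Median scaling gave 1002 genes between 24 and 2 h, and with it the 24 h calls of IFNGR2, SOCS1, IL10RB, AP2M1, OSBP and SOX11 were lost. The IFIT2 and IFNGR2 calls were lost without the filter on low signals, and the IFI6 and INPP5D calls with the mean of all probes. Without the replicate block the counts were 0, 6, 8, 4, 30, 2347 and 12. In that setting 0 of the interferon-stimulated genes that fell at 24 h passed (16 in the fit as reported, 13 to 15 with each line left out). That setting dropped the pairing by line. It also fitted each time separately, without the spread shared over times, and took all arrays as independent for the count over all times. The part of the pairing alone in these counts was not tested. Signal over background limits IFITM3 at all times and the size of the late IFITM1 and IFITM2 differences.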
